A study of Mus musculus with 6 samples.

Results

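The genes described here are the substrate adaptors of cullin ubiquitin ligases that carry the names Klhl, Kbtbd, Asb, Fbxo, Fbxl and Fbxw, as measured in ischaemic mouse muscle. They were chosen by symbol: every row named with a family prefix followed by a number was taken, except Fbxo30, Fbxo32 and Fbxo40. This gave 127 of the 25572 genes in the table, made up of 36 Klhl, 10 Kbtbd, 18 Asb, 33 Fbxo, 19 Fbxl and 11 Fbxw genes. Of these, 125 are protein coding, and the other two, Asb17os and Kbtbd8os, are non-coding transcripts that share the name of a neighbouring adaptor gene. The rule reads symbols only.

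A cullin ligase tags proteins with ubiquitin, and its adaptor decides which protein is tagged. Klhl and Kbtbd proteins pair a BTB domain, which binds cullin 3, with kelch repeats that hold the substrate. Asb proteins join cullin 5 through a SOCS box and the elongins, and F-box proteins join cullin 1 through Skp1. In skeletal muscle some of these adaptors are made almost solely in the fibres, where several control the stability of thin filament and cytoskeletal proteins.

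RNA was sequenced from hind limb skeletal muscle of 3 mice without histidine decarboxylase (HDCKO, Hdc-/- in the submitters' text) and 3 WT (wild-type) animals, with a library from each mouse. Histidine decarboxylase is the enzyme that makes histamine. All 6 mice carry the label HLI, the hind limb ischaemia surgery which cuts the limb's blood supply, and tissue was taken 3 days after surgery. Unoperated muscle was not analysed here, and the sources used here do not state strain, age, leg or muscle. Values are FPKM, fragments scaled by gene length and library size. A gene's change is the HDCKO minus WT difference of mean log2(FPKM + 0.5), tested with limma and called when its Benjamini-Hochberg adjusted p over 13288 genes was under 0.05.

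The libraries differed widely as a whole. Depth was estimated at 29200000 to 37500000 fragments, and 19169 to 21565 genes had a value above 0. Across genes, log2 values correlated at 0.975 to 0.986 among WT libraries, 0.887 to 0.963 among HDCKO libraries and 0.609 to 0.826 between the groups. The summed level of 20 muscle fibre markers was 54280 to 99200 FPKM in HDCKO and 475 to 1779 FPKM in WT. All 20 rose, and none was at 0 in any library. Of the leukocyte markers, 12 of 12 neutrophil genes fell (summed level 33.1 to 76.2 FPKM in HDCKO and 2557 to 14700 FPKM in WT), as did 7 of 12 macrophage genes (289.8 to 2110 against 2516 to 3075 FPKM). Of the endothelial markers 5 of 8 fell and of the fibroblast markers 2 of 8, while 2 of 8 myoblast markers rose. The HDCKO libraries were unlike each other in several marker sums. In mice 1, 2 and 3 the macrophage sum was 289.8, 849 and 2110 FPKM, the lymphocyte sum (8 genes) 0.207, 72.7 and 174 FPKM, the cell cycle sum (10 genes) 2.99, 12.7 and 102 FPKM and the myoblast sum 33.2, 37.2 and 160.2 FPKM. Hdc itself was at 1.22, 2.46 and 2.52 FPKM in HDCKO and 7.49, 7.72 and 8.17 FPKM in WT (log2 change -1.74, SE 0.25, adjusted p = 0.0033). The sources used here do not state which part of the gene the allele removes, so this level is no check of the deletion.

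Of the 127 genes, 113 had a value above 0 in all 6 libraries, and 105 passed the filter of a mean of at least 0.5 FPKM and were tested. In HDCKO muscle 35 of the 105 were higher and 27 were lower, which is 33.3% and 25.7%. Over all 13288 genes tested, 17.8% were higher and 42.6% were lower, 60.4% in all. The median log2 change was -0.14 over the adaptors and -0.50 over all genes. Groups that did not overlap were seen for 38 higher and 39 lower adaptors, beside 21.2% and 51.4% of all genes in those directions. The filter bears on these counts: 15 of the 35 higher genes reached it only through their HDCKO level and 4 of the 27 lower genes only through their WT level. The split also moved with the scaling of the libraries. Higher genes made up 56.5% of the adaptor calls on the deposited scale and 81.0% with median-of-ratios scaling (47 higher, 11 lower), a scaling that moved the median of all genes from -0.50 to -0.004. Over all genes the share of calls that were higher moved likewise, from 29.5% to 52.3%. The 27 lower adaptors became 8 without HDCKO mouse 2, 9 without WT mouse 1, 13 without WT mouse 2 and 9 without WT mouse 3, while the lower share of all genes fell to between 18.9% and 23.5%. Without HDCKO mouse 3, 37 adaptors and 55.1% of all genes were lower.

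The families did not share 1 pattern. The Asb genes had the highest median change, 2.75, with 12 of 16 tested genes higher and 1 lower. The Kbtbd genes followed with a median of 0.68, 4 of 8 higher and 1 lower. Of 31 Klhl genes 12 were higher and 7 lower, with a median of -0.09. The 3 F-box families had negative medians on the deposited scale, each above the median of all genes (-0.50): -0.35 for Fbxo (3 of 26 higher, 10 lower), -0.43 for Fbxl (3 of 16 higher, 6 lower) and -0.33 for Fbxw (1 of 8 higher, 2 lower). For Klhl, Fbxo and Fbxw the sign of the median flipped with median-of-ratios scaling, to 0.36, 0.11 and 0.21, whereas the Asb and Kbtbd medians stayed positive at 3.01 and 1.04. Taken as 1 group, the 50 tested F-box genes had 7 higher and 18 lower on the deposited scale (14.0% and 36.0%, beside 17.8% and 42.6% of all genes). With median-of-ratios scaling 15 were higher and 7 lower, beside 27.5% and 25.0% of all genes, so no direction is given for them. On the deposited scale the family order rests in part on the muscle-restricted genes described below. Without them the median was 0.205 for Asb (3 of 7 higher, 1 lower) and 0.48 for Kbtbd (2 of 6 higher, 1 lower). For Klhl it was -0.27 (5 of 24 higher, 7 lower). Asb10, Asb12, Asb14, Asb15, Asb16, Asb18, Klhl31, Klhl33, Klhl34, Klhl38, Kbtbd8, Kbtbd12 and Kbtbd13 reached the filter only through HDCKO.

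**Figure D1:**
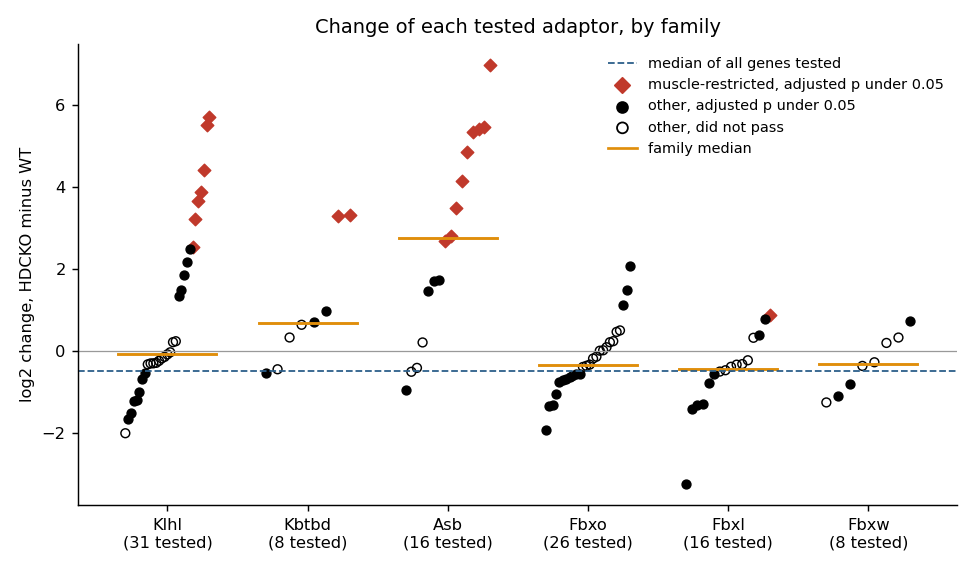
Log2 change (HDCKO minus WT, y axis) of each tested adaptor, grouped by family on the x axis and sorted within it. Red diamonds are muscle-restricted genes and black filled circles other genes with an adjusted p under 0.05, open circles did not pass, orange bars are family medians and the dashed line is the median of all genes tested (-0.50). The 19 red diamonds lie between 0.86 and 6.99, and 9 of them are Asb genes.

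The muscle-restricted adaptors set the top of this range. This list of 19 genes known for expression mainly in striated muscle held 7 Klhl, 2 Kbtbd, 9 Asb and 1 Fbxl gene. All 19 were higher in HDCKO, with a median log2 change of 3.87, and in none did the groups overlap. However, 13 of them reached the filter only through HDCKO, the group in which they are high, so this count supports nothing by itself: Klhl31, Klhl33, Klhl34, Klhl38, Kbtbd12, Kbtbd13, Asb10, Asb12, Asb14, Asb15, Asb16, Asb18 and Fbxl22. The 6 that reached it in both groups, Klhl30, Klhl40, Klhl41, Asb2, Asb5 and Asb11, had log2 changes of 3.22 to 6.99. The remaining 86 tested adaptors had 16 higher (18.6%) and 27 lower (31.4%), beside 17.8% and 42.6% of all genes, and a median of -0.32. All 20 fibre markers rose with the muscle-restricted adaptors, as given above, and their part in these changes was not tested. In a bulk sample fewer fibres and less RNA per fibre cannot be told apart.

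The summed level of the 19 genes was 911, 886 and 559 FPKM in HDCKO mice 1, 2 and 3 and 43.1, 10.1 and 9.39 FPKM in WT mice 1, 2 and 3. The lowest HDCKO sum was far above the highest WT sum, and the means were 37.6-fold apart. The fibre marker sums were 83.9-fold apart. The summed level of the other 108 adaptors was 539.8, 560.4 and 558 FPKM in HDCKO and 573, 706 and 562 FPKM in WT. That sum was lower in every HDCKO library than in any WT library, but by little. Muscle-restricted genes thus made up 50.1 to 62.8% of all adaptor FPKM in HDCKO and 1.41 to 6.99% in WT.

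**Figure D2:**
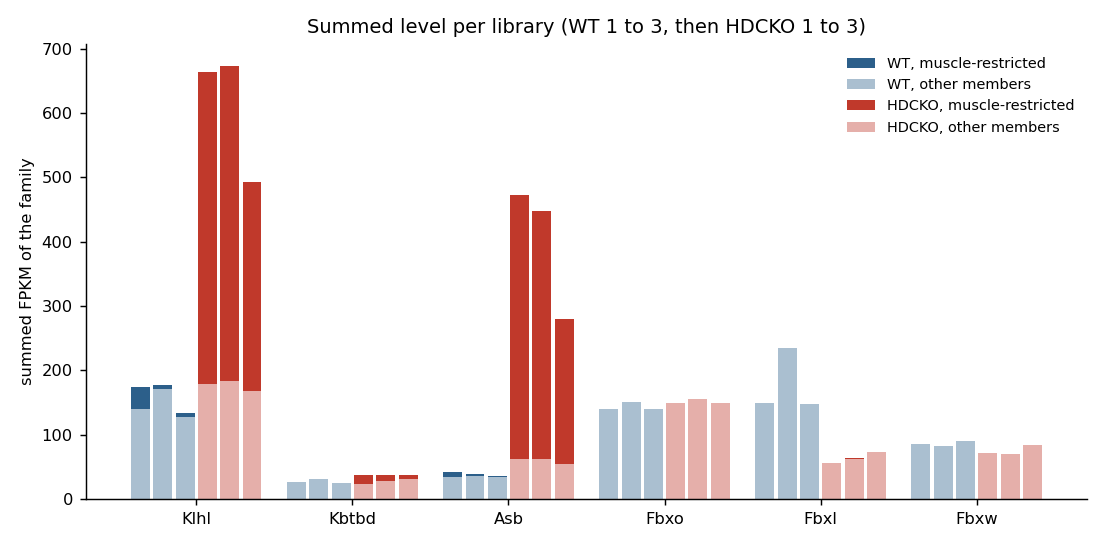
Summed FPKM (y axis) of the members of each family (x axis) in each library, WT mice 1 to 3 in blue and then HDCKO mice 1 to 3 in red. Dark parts are muscle-restricted genes and pale parts the others. The dark part is large in HDCKO for Klhl and Asb, and the Fbxl bars are taller in WT (147 to 235 FPKM) than in HDCKO (56.4 to 73.2 FPKM).

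Among the cullin 3 adaptors, Klhl41 and Klhl40 are kelch proteins that stabilise nebulin and other thin filament proteins, and mutations in either cause nemaline myopathy. Klhl41 was at 320.1, 362 and 222 FPKM in HDCKO mice 1, 2 and 3 and 15.9, 2.93 and 4.29 FPKM in WT mice 1, 2 and 3. It was the most abundant adaptor per length in every HDCKO library, with 19.9 to 25.0% of all adaptor FPKM. Its mean rose 39.1-fold, from 7.71 ± 7.14 to 302 ± 71.8 FPKM (SD, n = 3; log2 change 5.52, SE 0.59, adjusted p = 0.0012). Klhl40 was at 55.9, 47.5 and 44.3 FPKM in HDCKO and 12.04, 2.29 and 1.20 FPKM in WT. The groups lay apart, and WT mouse 1 stood above the other two WT mice. The rise in Klhl40 was 9.51-fold (log2 change 3.66, SE 0.71, adjusted p = 0.0083). Its exons overlap those of Hhatl on the opposite strand over 15.7% of their length, and the sources used here do not state whether counting used strand.

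These closest relatives, with 52.8% identical residues, differed in their ratio between the groups. Klhl40 was 0.174, 0.131 and 0.199 of Klhl41 in HDCKO and 0.757, 0.783 and 0.279 of it in WT. The ratios did not overlap (exact two-sided permutation p = 0.1, the smallest that 3 against 3 can give), and the pair was chosen after its values were seen. RNA of nebulin (Neb) and leiomodin 3 (Lmod3), thin filament proteins that Klhl40 stabilises, was also higher. Protein was not measured here, and Neb is itself among the fibre markers. Neb was at 163 to 266 FPKM in HDCKO and 1.09 to 3.55 FPKM in WT, a log2 change of 6.48. Lmod3 was at 34.6 to 60.1 FPKM in HDCKO and 0.376 to 1.43 FPKM in WT, a log2 change of 5.03.

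The other muscle-restricted Klhl genes had lower levels. Klhl31, a kelch protein for which filamin C is a known substrate, was at 47.8, 34.9 and 24.5 FPKM in HDCKO and 0.275, 0.099 and 0.121 FPKM in WT. That was the largest log2 change of the Klhl genes, 5.73 (SE 0.27, adjusted p = 0.000147), in a gene that reached the filter only through HDCKO. Klhl38 was at 12.6, 13.5 and 10.8 FPKM in HDCKO and 0.188, 0.0776 and 0.0388 FPKM in WT (log2 change 4.42), the tightest HDCKO group of the 7. Klhl30 was at 27.6, 21.1 and 15.9 FPKM in HDCKO and 5.40, 1.26 and 0.696 FPKM in WT (log2 change 3.22, adjusted p = 0.0073). Like Klhl40, it was highest among WT animals in mouse 1. Klhl33 rose by 3.87 and Klhl34 by 2.53 on the log2 scale. Klhl34 was listed at 0 in WT mouse 2 and did not exceed 0.0229 FPKM in the other WT mice. All its 1935 exon bases lie within exons of Cnksr2 on the opposite strand.

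Kbtbd13, a cullin 3 adaptor of the sarcomere whose mutations also cause nemaline myopathy, was at 8.29, 5.15 and 3.20 FPKM in HDCKO. In WT it was at 0.0928, 0.0444 and 0.116 FPKM (log2 change 3.29, SE 0.32, adjusted p = 0.00092), and it too reached the filter only through HDCKO. Kbtbd12 changed by 3.32. The share of the Kbtbd family sum held by these genes was 18.5 to 40% in HDCKO and 0.245 to 0.583% in WT.

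The Asb genes are cullin 5 adaptors with ankyrin repeats. Asb2, which directs the degradation of filamins, was at 156, 147 and 98.0 FPKM in HDCKO and 0.940, 0.400 and 0.353 FPKM in WT. It had the largest change of all the adaptors, 6.99 on the log2 scale (SE 0.28, adjusted p = 0.000147), with means of 134 ± 31.2 and 0.564 ± 0.326 FPKM (SD, n = 3). It ranked next after Klhl41 in each HDCKO library. RNA of filamin A (Flna, log2 change -1.64), an actin cross-linking protein, fell, and that of filamin C, the muscle form (Flnc, 1.13, adjusted p = 0.060), did not pass the test. Flnc passed when WT mouse 1 was left out (log2 change 1.63, adjusted p = 0.0080) and with all 3 other scalings. RNA of the intermediate filament protein desmin (Des, 4.45) rose. The Flna call was lost when HDCKO mouse 2, WT mouse 2 or WT mouse 3 was left out (adjusted p up to 0.058).

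Asb11 was at 96.5, 127 and 52.6 FPKM in HDCKO and 3.75, 1.04 and 0.673 FPKM in WT (log2 change 5.46, SE 0.56, adjusted p = 0.0011). Its closest relative Asb5, with 55.7% identity, was at 32.6, 22.6 and 14.9 FPKM in HDCKO and 2.74, 1.09 and 1.07 FPKM in WT (log2 change 3.50). In both genes every HDCKO library was above every WT library, and WT mouse 1 was the highest WT library. Asb10 was at 39.01, 21.2 and 16.9 FPKM in HDCKO and 0.142, 0.061 and 0.112 FPKM in WT (log2 change 5.35). Asb16 changed by 5.43, Asb14 by 4.85 and Asb12 by 4.15. Asb15 (2.68) and Asb18 (2.82) were the lowest of the 9 in HDCKO, with Asb18 at 4.14, 3.05 and 2.27 FPKM. In WT Asb18 was at 0.0119, 0 and 0.0102 FPKM, so its log2 change is set by the pseudocount. The muscle-restricted genes held 80.7 to 86.7% of the Asb family sum in HDCKO and 6.78 to 20.5% in WT.

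Fbxl22, an F-box protein of the sarcomere, had the smallest change of the 19. It was at 1.28, 0.590 and 0.862 FPKM in HDCKO and 0.213, 0.361 and 0.215 FPKM in WT (log2 change 0.86, SE 0.23, adjusted p = 0.0196). The call was lost with quantile normalization and without WT mouse 1 or WT mouse 3 (adjusted p up to 0.069). The calls of the other 18 held under every other setting in which they were tested.

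**Figure D3:**
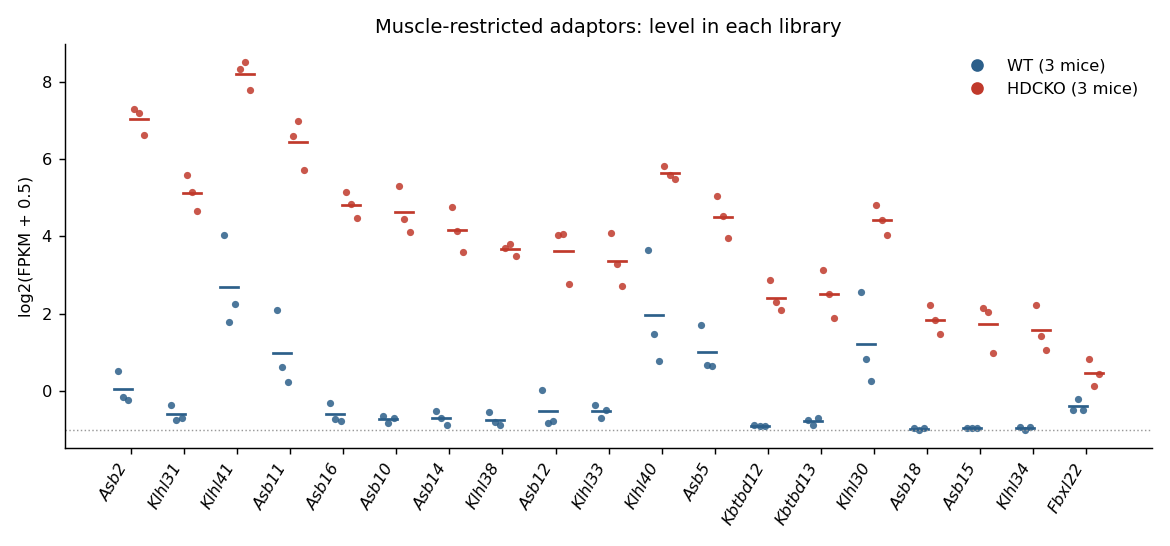
Level in each library, as log2(FPKM + 0.5) on the y axis, of the 19 muscle-restricted adaptors on the x axis, sorted by change. Points are mice (WT blue, HDCKO red), bars are group means and the dotted line marks 0 FPKM. The HDCKO points lie above the WT points for every gene, and Klhl41, Klhl40, Asb11 and Klhl30 show a WT mouse well above the other two.

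The order of the animals was shared across the list. The highest HDCKO level was in mouse 1 for 15 of the 19 genes and in mouse 2 for 4, and the lowest was in mouse 3 for 18. In WT the highest level was in mouse 1 for 17 genes. The fibre marker sum had the same order, at 99200, 84080 and 54280 FPKM in HDCKO mice 1, 2 and 3 and 1779, 575.5 and 475 FPKM in WT mice 1, 2 and 3. These genes come from the same libraries and are not independent of each other.

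Promoter sequence is given for the most abundant adaptors, because muscle factors of the MyoD and MEF2 families are known to bind short motifs near muscle genes. Whether these factors have a part in the changes was not tested. The 250 bases upstream of the GENCODE canonical start were read from GRCm39, for Klhl41 at chr2:69500214-69500463 on the plus strand and for Asb2 at chr12:103322485-103322734 on the minus strand. Sequences run 5′ to 3′ on the gene's strand, and capitals mark the E-box letters CAGCTG or CACCTG and the 10-base MEF2 site.
Klhl41: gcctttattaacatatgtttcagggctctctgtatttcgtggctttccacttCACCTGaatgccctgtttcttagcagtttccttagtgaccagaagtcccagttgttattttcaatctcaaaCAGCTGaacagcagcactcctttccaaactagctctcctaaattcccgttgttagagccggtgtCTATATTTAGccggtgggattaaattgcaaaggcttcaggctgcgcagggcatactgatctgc
Asb2: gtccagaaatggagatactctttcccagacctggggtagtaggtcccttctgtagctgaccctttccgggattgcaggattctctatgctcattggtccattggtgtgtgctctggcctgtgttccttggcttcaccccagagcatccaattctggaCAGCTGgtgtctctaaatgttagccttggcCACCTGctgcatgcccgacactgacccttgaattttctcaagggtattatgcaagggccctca

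In the Klhl41 sequence CAGCTG begins 127 bases before the start and the MEF2 site 63 bases before it. Asb2 has CAGCTG at 93 and CACCTG at 63 bases before the start and no MEF2 match. A MEF2 match on either strand was found in 7 of the 19 muscle-restricted promoters (36.8%) and in 607 of 21734 protein-coding promoters of the same length (2.79%). It was found in 1 of 16 other adaptors that were higher, 2 of 27 that were lower, 0 of 43 that did not pass, and 2 of 20 fibre markers. The 7 sites are shown with up to 12 flanking bases on each side and the site in capitals, at chr9:121606715-121606748 (plus strand), chr2:69500389-69500422 (plus), chr14:51134969-51135002 (minus), chr6:88604481-88604514 (minus), chrX:94521762-94521795 (minus), chr11:102159507-102159540 (plus) and chr1:89942389-89942411 (minus) in GRCm39.
Klhl40: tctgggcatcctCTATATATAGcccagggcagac
Klhl41: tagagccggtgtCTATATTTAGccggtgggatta
Klhl33: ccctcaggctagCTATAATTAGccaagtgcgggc
Kbtbd12: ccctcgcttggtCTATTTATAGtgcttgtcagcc
Asb12: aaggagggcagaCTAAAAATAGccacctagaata
Asb16: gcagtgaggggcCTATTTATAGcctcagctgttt
Asb18: ccagccctgattCTATTTATAGc

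The site began 26 to 66 bases before the start in 6 of these genes and 11 bases before it in Asb18. The letters CAGCTG were present in 7 of 19 muscle-restricted promoters (36.8%) beside 11.9% of all promoters, and CACCTG in 6 of 19 (31.6%) beside 17.7%. The general E-box CANNTG, which includes both, was present in 18 of 19 (94.7%) beside 64.8%, and TATAAA in 7 of 19 (36.8%) beside 11.9%. In Kbtbd12, Asb16 and Asb18 the TATAAA letters lie inside the MEF2 site, on its other strand. A CArG box was present in 2 of 19 (10.5%) beside 1.40%. Among adaptors outside the muscle list that were higher, lower or did not pass, the shares were 25.0%, 11.1% and 18.6% for CAGCTG. In the same order they were 6.25%, 14.8% and 9.3% for CACCTG and 62.5%, 74.1% and 62.8% for CANNTG. For TATAAA they were 12.5%, 3.7% and 4.65%, and for the CArG box 0.0%, 7.41% and 0.0%. All motifs were searched on both strands. A match describes the letters and does not show a bound site.

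Of the 86 tested adaptors outside the muscle list, 16 were higher. Klhl21, a cullin 3 adaptor that acts on Aurora B in mitosis, changed most among them. It was at 63.8, 55.5 and 31.0 FPKM in HDCKO and 8.53, 9.40 and 6.68 FPKM in WT (log2 change 2.49, SE 0.30, adjusted p = 0.0019). The groups were far apart, with HDCKO mouse 3 the lowest of the HDCKO animals, as for the muscle-restricted genes. Fbxo31, an F-box protein that targets cyclin D1, was at 28.0, 26.0 and 16.2 FPKM in HDCKO and 4.97, 6.84 and 3.71 FPKM in WT (log2 change 2.07, SE 0.29, adjusted p = 0.0032). Asb8 was at 38.2, 35.5 and 25.0 FPKM in HDCKO and 10.5, 8.88 and 9.28 FPKM in WT (log2 change 1.71, adjusted p = 0.0016). In both the HDCKO libraries were all above the WT libraries.

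Klhl24, an adaptor known for controlling intermediate filament turnover in skin and heart, was at 26.9, 25.5 and 21.2 FPKM in HDCKO and 8.35, 14.7 and 6.38 FPKM in WT (log2 change 1.35). It lost its call without HDCKO mouse 2 (adjusted p = 0.051). Fbxw5 was at 26.6, 23.9 and 21.0 FPKM in HDCKO and 14.0, 12.9 and 15.5 FPKM in WT (log2 change 0.73). The other higher genes are given for completeness. Only Fbxo44 and Kbtbd8 among them fall under the rule for named genes, as closest relatives of named genes. The full list was Klhl8 (2.18), Klhl23 (1.86), Asb4 (1.74), Fbxo44 (1.498), Klhl7 (1.48), Asb13 (1.48), Fbxo3 (1.12), Kbtbd3 (0.97), Fbxl17 (0.79), Kbtbd8 (0.72) and Fbxl4 (0.39), as log2 changes. Leaving out a library ended the calls of Fbxl4 (all but HDCKO mouse 3), Kbtbd3 (HDCKO mouse 2, WT mouse 1 or WT mouse 3), Kbtbd8 (HDCKO mouse 2 or WT mouse 1) and Fbxl17 (HDCKO mouse 2), with adjusted p up to 0.13. Of all 35 higher adaptors, 34 remained called under all 3 other scalings and 29 in every setting in which they were tested.

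All 27 lower adaptors lay outside the muscle list, and Fbxl5 led them. Fbxl5 is the iron-sensing F-box protein that marks iron regulatory protein 2 for degradation when iron is plentiful. It was at 8.46, 9.26 and 11.5 FPKM in HDCKO and 79.6, 149.9 and 77.4 FPKM in WT. The HDCKO animals were close together, and WT mouse 2 was the highest of all. The mean was 10.5-fold lower in HDCKO, 9.75 ± 1.59 against 102 ± 41.2 FPKM (SD, n = 3; log2 change -3.27, SE 0.29, adjusted p = 0.00069). In WT it was the most abundant adaptor per length in every library, with 12.9 to 20.9% of all adaptor FPKM. The neutrophil marker sum, with no marker at 0 in any library, had the same order among WT animals, at 14700 FPKM in mouse 2 beside 4058 and 2557 FPKM in mice 1 and 3. In HDCKO the orders differed, with that sum at 33.1, 76.2 and 70.7 FPKM in mice 1, 2 and 3 and Fbxl5 highest in mouse 3. The mean of the sum was 118-fold lower in HDCKO. The part of neutrophil RNA in the Fbxl5 level was not tested.

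Klhl2 and Klhl3 are closely related kelch adaptors, with 76.5% identity, that target WNK kinases, regulators of salt transport. Klhl2 was at 1.81, 4.98 and 3.96 FPKM in HDCKO and 10.7, 17.7 and 8.32 FPKM in WT (log2 change -1.66, SE 0.41, adjusted p = 0.016). The call was lost without WT mouse 2 (adjusted p = 0.052). Klhl3 was at 0.243, 0.247 and 0.434 FPKM in HDCKO and 1.53, 1.57 and 1.06 FPKM in WT (log2 change -1.22, SE 0.19, adjusted p = 0.0045). The groups were apart in both genes. Klhl3 reached the filter only through WT.

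Klhl5 and Klhl4 are another close pair, with 73.2% identity. Klhl5 was at 1.36, 2.75 and 4.45 FPKM in HDCKO and 8.53, 8.69 and 8.08 FPKM in WT (log2 change -1.53, adjusted p = 0.014). Klhl4 was at 1.46, 1.21 and 2.11 FPKM in HDCKO and 4.80, 6.37 and 2.46 FPKM in WT (log2 change -1.21, adjusted p = 0.026). The lowest WT value of Klhl4 was close to the highest HDCKO value, and its call was lost in 9 of 15 other settings (adjusted p up to 0.092), among them all 3 other scalings and each fit that left out a library other than HDCKO mouse 3 or WT mouse 3.

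Fbxo4, an F-box protein that targets cyclin D1, was at 1.58, 2.42 and 2.71 FPKM in HDCKO and 6.41, 6.02 and 6.67 FPKM in WT (log2 change -1.35, SE 0.20, adjusted p = 0.0037). Fbxo48 (log2 change -1.33) and Fbxl2 (-1.29), which targets a regulatory subunit of phosphoinositide 3-kinase, reached the filter only through WT. Fbxl19 (-1.42), which carries a domain for unmethylated CpG DNA, Fbxw9 (-1.10) and Fbxl14 (-1.32), which targets Snail, each lost the call when HDCKO mouse 2, WT mouse 1 or WT mouse 3 was left out, and Fbxl14 also without WT mouse 2 (adjusted p up to 0.073). Exons of Fbxl14 overlap Wnt5b on the opposite strand over 42.0% of their length.

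Fbxo5, also called Emi1, inhibits the anaphase-promoting complex in dividing cells. It was at 0.115, 0.712 and 3.40 FPKM in HDCKO and 4.51, 5.41 and 5.10 FPKM in WT (log2 change -1.95, SE 0.64, adjusted p = 0.039). HDCKO mouse 3 was close to the WT animals and mouse 1 far below them. The call was lost in 9 of 15 other settings, among them each fit that left out a library other than HDCKO mouse 3 (adjusted p up to 0.11). Of 10 cell cycle markers 9 fell, with none at 0 in any library, and their sum ran in the same order in HDCKO, 2.99, 12.7 and 102 FPKM, against 166 to 218 FPKM in WT. Their part in the Fbxo5 change was not tested. Klhl6, a kelch adaptor known from B cells, was at 1.01, 6.88 and 16.0 FPKM in HDCKO and 21.6, 28.3 and 18.6 FPKM in WT. The groups did not overlap, but Klhl6 did not pass the test (log2 change -2.02, SE 0.83, adjusted p = 0.076). It passed when HDCKO mouse 3 was left out (log2 change -2.78, adjusted p = 0.014) and with sample weights. The macrophage marker sum, with no marker at 0 in any library, ran in the same order in HDCKO, at 289.8, 849 and 2110 FPKM, and was 2516 to 3075 FPKM in WT. The lymphocyte marker sum was 0.207, 72.7 and 174 FPKM in HDCKO, with Cd8a and Nkg7 at 0 in mouse 1, and was lower in WT than in HDCKO mice 2 and 3, at 1.18 to 1.85 FPKM. The part of either in the Klhl6 level was not tested. Klhl6 was among the 15 tested adaptors with groups apart and no call. It lies outside the rule for named genes and was chosen after its values were seen.

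**Figure D4:**
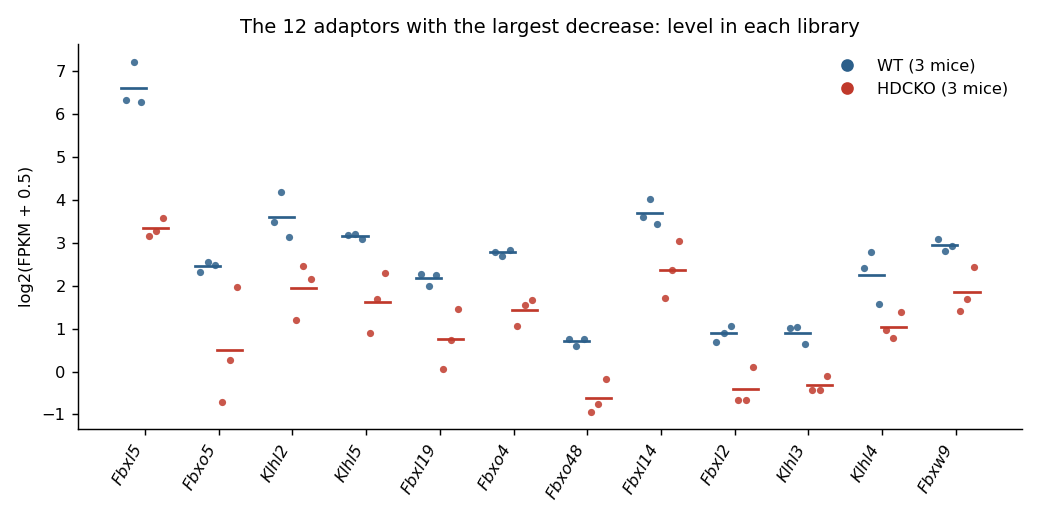
Level in each library, as log2(FPKM + 0.5) on the y axis, of the 12 adaptors with the largest called decrease on the x axis. Points are mice (WT blue, HDCKO red) and bars group means. Fbxl5 shows the widest gap between groups, and Fbxo5 the widest spread among HDCKO mice (0.115 to 3.40 FPKM).

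The order of the HDCKO animals was the reverse of that in the muscle-restricted genes: of the 27 lower adaptors, 23 were lowest in HDCKO mouse 1 and 24 were highest in HDCKO mouse 3. The share of all lower genes with this order was not counted. Across all tested genes HDCKO mouse 1 correlated with WT libraries at 0.609 to 0.657 and mouse 3 at 0.783 to 0.826. The counts are therefore not read as particular to the adaptors. The lower calls depended on scaling. With all 3 other scalings 11 of the 27 remained called, namely Fbxl5, Klhl2, Klhl3, Klhl5, Fbxo4, Fbxo48, Fbxl2, Fbxl14, Fbxl19, Fbxw9 and Asb6. In every setting in which they were tested 7 remained: Asb6, Fbxl2, Fbxl5, Fbxo4, Fbxo48, Klhl3 and Klhl5. Asb6 was at 4.66, 5.07 and 7.47 FPKM in HDCKO and 10.8, 12.3 and 11.4 FPKM in WT (log2 change -0.97, adjusted p = 0.0097), the only Asb gene called lower. It is outside the rule for named genes and was chosen after its values were seen.

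Several abundant adaptors did not pass the test on the deposited scale. Fbxo6, which recognises sugar chains on glycoproteins, was at 12.9, 16.3 and 14.8 FPKM in HDCKO and 14.2, 16.1 and 13.6 FPKM in WT (log2 change 0.003, SE 0.15, adjusted p = 0.99). The groups overlapped on this scale, and Fbxo6 was called higher with all 3 other scalings (log2 change 0.41 to 0.54). Its closest relative Fbxo44, with 68.2% identity, was at 2.97, 2.58 and 1.44 FPKM in HDCKO and 0.596, 0.522 and 0.321 FPKM in WT, a log2 change of 1.498 (adjusted p = 0.0064). Fbxw11, which targets beta-catenin, was at 14.5 to 19.9 FPKM in HDCKO and 20.6 to 22.1 FPKM in WT and did not pass (log2 change -0.37, adjusted p = 0.084). Kbtbd4 (0.33), Kbtbd7 (-0.45) and Fbxl6 (-0.51) did not pass. Without HDCKO mouse 3, Fbxw11 (-0.50, adjusted p = 0.0087), Fbxl6 (-0.75, adjusted p = 0.016) and Kbtbd4 (0.35, adjusted p = 0.037) passed, and Kbtbd4 also passed with all 3 other scalings. Fbxo11 (-0.57), Kbtbd2 (-0.55) and Fbxw8 (-0.80) were lower on the deposited scale, and each lost the call under all 3 other scalings.

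Sequence relatives of the 125 protein-coding adaptors were sought only within each name family, using the translated GENCODE canonical coding sequences. Genes of different families, such as Klhl and Kbtbd, were not aligned with each other. There were 29 pairs in which each gene was the closest relative of the other, and both genes were tested in 21 of them. Both were higher in 5 pairs and both lower in 2, the Klhl2 and Klhl3 pair and the Klhl4 and Klhl5 pair. The 5 higher pairs were Asb5 with Asb11 (55.7% identity), Klhl40 with Klhl41 (52.8%), Asb14 with Asb15 (49.1%), Asb10 with Asb18 (43.7%) and Klhl21 with Klhl30 (39.4%). In 1 pair the calls were opposite, Kbtbd2 (lower) with Kbtbd8 (higher), at 33.2% identity. Over all tested adaptors 33.3% were higher and 25.7% lower, and in the 5 higher pairs every gene but Klhl21 is muscle-restricted. Asb10, Asb14, Asb15, Asb18 and Kbtbd8 reached the filter only through HDCKO, and Klhl3 only through WT. The calls of pairs with these genes support nothing by themselves. The closest relative was also muscle-restricted for 10 of the 19 muscle-restricted genes. The Asb family holds 9 of the 19. Of its genes outside the list, Asb1, Asb4, Asb7, Asb8, Asb13 and Asb17 also had a muscle-restricted closest relative, and Asb3 and Asb6 did not. No share over all adaptors was worked out. The most alike pair, Klhl9 and Klhl13 with 90.1% identity, did not pass in either gene (log2 changes -0.33 and -0.31), and the sources used here do not state how reads shared by such genes were treated.

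The cullins and their shared machinery were compared as a list of 38 genes. Of these, 12 were higher and 7 lower (31.6% and 18.4%, beside 17.8% and 42.6% of all genes), with a median log2 change of 0.05. With median-of-ratios scaling 19 were higher and 2 lower, beside 27.5% and 25.0% of all genes. The higher count became 5 without HDCKO mouse 2, 5 without WT mouse 1, 7 without WT mouse 2 and 6 without WT mouse 3. The lower count became 4 without HDCKO mouse 1 and 2 without HDCKO mouse 2 or any of the WT mice. The summed level of the 8 cullins was 144.9 to 148 FPKM in HDCKO and 136 to 138 FPKM in WT. Cul3, the partner of Klhl and Kbtbd proteins, was at 53.8, 48.0 and 38.7 FPKM in HDCKO and 30.9, 33.2 and 28.5 FPKM in WT (log2 change 0.58, SE 0.17, adjusted p = 0.027). The groups were apart, but the call was lost when any library other than HDCKO mouse 3 was left out (adjusted p up to 0.094). Cul5, the partner of Asb proteins, was at 20.5, 17.4 and 15.3 FPKM in HDCKO and 10.9, 9.08 and 9.70 FPKM in WT (log2 change 0.81, SE 0.16, adjusted p = 0.0090). Its call held in every setting. Cul1, the partner of F-box proteins, was at 23.9 to 28.9 FPKM in HDCKO and 29.1 to 30.6 FPKM in WT and did not pass (log2 change -0.23, adjusted p = 0.18). Skp1, the link between Cul1 and F-box proteins, was higher by 0.56 on the log2 scale and lost its call without HDCKO mouse 2, WT mouse 1 or WT mouse 3 (adjusted p up to 0.070).

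Cul7, which works with Fbxw8, was at 2.15, 4.02 and 7.48 FPKM in HDCKO and 15.3, 13.4 and 18.2 FPKM in WT (log2 change -1.81, SE 0.40, adjusted p = 0.012). Every HDCKO value was below every WT value. Cul4b was lower (log2 change -0.98) and lost its call with median-of-ratios scaling. The Cul4b call, like that of Cul2, which was higher (0.47), was also lost without HDCKO mouse 2 or any of the WT mice (adjusted p up to 0.078). Cul4a (0.18) and Cul9 (0.32) did not pass on the deposited scale, and both were called higher with all 3 other scalings (0.57 to 0.72 and 0.65 to 0.77) and with sample weights.

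The largest increases of the shared machinery were in the exchange factor Cand2 and the activation factor Dcun1d2. Cdc34 came next (log2 change 1.58, adjusted p = 0.0017). The largest decreases were in Cul7, given above, and Cand1. Cand2 and Cand1 are related proteins that free cullins for a new adaptor, and Cand2 is known for its expression in muscle. Cand2 was at 25.9, 18.9 and 18.1 FPKM in HDCKO and 1.65, 1.30 and 1.83 FPKM in WT (log2 change 3.35, SE 0.20, adjusted p = 0.00021). Cand1 was at 3.50, 5.32 and 9.24 FPKM in HDCKO and 16.0, 16.0 and 17.3 FPKM in WT (log2 change -1.47, SE 0.32, adjusted p = 0.012). The Cand2 to Cand1 ratio was 7.40, 3.55 and 1.96 in HDCKO and 0.103, 0.0816 and 0.106 in WT, so the more abundant of the pair differed between the groups. Dcun1d2, which helps to attach Nedd8 to cullins, was at 32.0, 26.9 and 18.9 FPKM in HDCKO and 6.57, 5.19 and 5.96 FPKM in WT (log2 change 2.02). Its relative Dcun1d1 was at 4.94 to 5.58 FPKM in HDCKO and 3.66 to 4.05 FPKM in WT (log2 change 0.36) and did not pass (adjusted p = 0.055). Dcun1d1 passed in 6 of 15 other settings, among them all 3 other scalings (log2 change 0.74 to 0.87) and the fit without HDCKO mouse 3 (0.38, adjusted p = 0.037). Exact two-sided permutation tests of both ratios gave p = 0.1, the smallest possible, and the pairs were chosen after their values were seen.

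**Figure D5:**
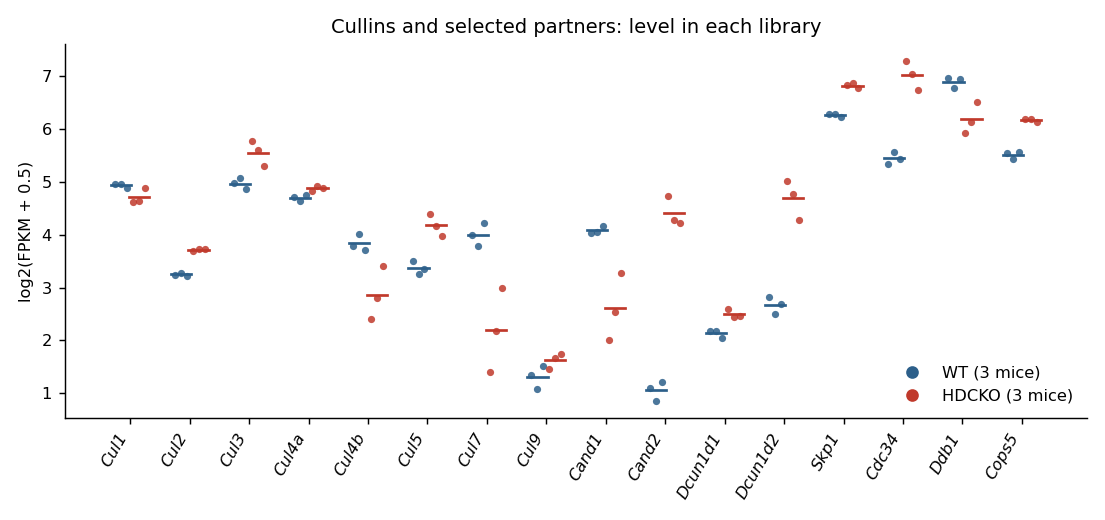
Level in each library, as log2(FPKM + 0.5) on the y axis, of the 8 cullins and 8 selected partners on the x axis. Points are mice (WT blue, HDCKO red) and bars group means. Cand1 and Cand2 move in opposite directions, and Cul1 and Cul4a show groups close to each other.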

How the data were processed

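Total RNA of hind limb muscle was sequenced from 3 HDCKO and 3 WT mice. The labels' protocols name a VAHTS Universal V6 library kit. The submitters' processing notes list FastQC 0.11.9, HISAT2 2.1.0, HTSeq 0.11.2 and STAR 2.7.11b with GRCm39. The deposited values are FPKM, which the authors computed from counts, per the submitters' processing notes. The notes also name DESeq2 1.22.2. The sources used here do not state which aligner led to the table. FPKM divides by a library total, so a few very abundant genes can shift all others.

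The depth estimates come from the smallest FPKM steps and exon lengths. They entered no test and cover 29200000 to 37500000 fragments. Values far below 0.5 FPKM rest on few fragments.

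The test was limma-trend (limma 3.58.1, R 4.3.3) on log2(FPKM + 0.5) with no covariate, in the 13288 genes whose mean reached 0.5 FPKM, adjusted by Benjamini and Hochberg's method. Changes of low genes are understated on this scale. Other pseudocounts, filters, scalings, sample weights, a replicate block and leaving out each library were tried. Nothing says whether the mice of a group were littermates, and p-values measure only the spread between these animals.

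Named genes were the muscle-restricted genes, the 12 largest called changes in each direction with groups apart, the 3 most abundant members per family, the cullins, the 2 largest other core changes in each direction, and closest relatives. Values of some genes under this rule are left out of the text. Members and lists were chosen with earlier results of these data known. Gene models, promoters and coding sequences came from GENCODE M39 on GRCm39. Identity is matching residues over the shorter protein after alignment with Biopython 1.88. Only proteins of the same name family were aligned, so a closest relative is the closest within its family.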

Additional observations from a re-analysis of the deposited data

How the results depend on the processing

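The 35 higher adaptors and the 19 higher and 0 lower muscle-restricted adaptors kept within 1.5 times of these counts in every setting. The 27 lower adaptors, all outside the muscle list, became 11 with median-of-ratios scaling, 16 with quantile normalization, 11 after rescaling without fibre and mitochondrial genes and 47 with sample weights. The 16 higher adaptors outside the muscle list became 28, 26, 27 and 27 in the same order. Core genes went from 12 to 19, 19 and 20 higher with the 3 scalings and from 7 to 2, 3 and 2 lower, and to 15 lower with sample weights. Over all genes, median-of-ratios scaling gave 3647 higher and 3320 lower, and rescaling without fibre and mitochondrial genes gave 3190 lower. 

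The median change of the adaptors (-0.14) was -0.036 with a filter at 1 FPKM and 0.35, 0.23 and 0.23 with the 3 scalings. That of the core genes (0.05) was 0.57, 0.42 and 0.44 with the 3 scalings, and that of all genes (-0.50) was -0.054 with no filter and -0.004, -0.12 and -0.12 with the 3 scalings. The muscle-restricted median (3.87) was 5.18 with a pseudocount of 0.1 FPKM and 3.42 with 1 FPKM. Gps1 (-0.37) turned to 0.17, 0.056 and 0.037 with the 3 scalings, and Nedd8 (-0.55) to 0.006 with median-of-ratios scaling. The cause of these shifts was not tested.

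Leaving out 1 library gave 8 to 37 lower adaptors, with the same range outside the muscle list, 30 to 37 higher adaptors and 11 to 18 higher outside the muscle list. It gave 18 to 19 higher muscle-restricted genes, 5 to 14 higher and 2 to 9 lower core genes, and 1753 to 2455 higher and 2507 to 7288 lower genes over all. The lower adaptors were 8 without HDCKO mouse 2, 9 without WT mouse 1, 13 without WT mouse 2 and 9 without WT mouse 3. Medians ran from 3.76 to 4.43 for muscle-restricted genes, -0.20 to -0.08 for the adaptors, 0.03 to 0.11 for core genes and -0.64 to -0.37 for all genes.

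With a replicate block the core genes had 7 higher and 4 lower, and Cul2, Skp1, Fbxl4, Fbxo11, Kbtbd2 and Klhl4 were among the genes no longer called (adjusted p 0.054 to 0.099). Same-numbered mice had deviations that correlated at 0.122, 0.0666 and 0.138 across genes. Not every pair was above 0.1, so the numbers were not taken as pairs, and these values do not show whether mice shared a litter or day. HDCKO mouse 2 correlated best with WT mouse 1 (0.112). Of 2234 single-gene results under 15 other settings, 1880 kept their direction and side of the threshold, 222 lost and 128 gained the call, and 4 turned.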
